A study of Mus musculus with 16 samples.

Results

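Hepcidin, the hormone with which the liver controls body iron, is described here through 10 genes: the hepcidin genes Hamp and Hamp2, and the iron regulators Tfr2, Tfrc, Bmp6, Id1, Smad6, Smad7, Slc40a1 and Trf. They were taken by symbol from the 35275 gene IDs of an RNA-seq table of mouse liver, with values in FPKM, that is, fragments scaled to gene length and library size. The mice were wild type (WT) or carried a liver-specific knockout of Zfp36l1 (LKO), and each genotype was fed a control diet or an ethanol diet, with 4 libraries in each of the 4 groups. The labels used here give no strain, age, sex, feeding time, Cre driver, batch or pairing, and the numbers in the library titles, different for each library, are not said to be animals, so p-values measure the spread between these libraries. The product of Zfp36l1 is known to attach to AU-rich elements in messenger RNAs, which are then degraded sooner.

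Hepcidin is secreted by hepatocytes and blocks ferroportin (Slc40a1), the only known iron exporter of mammalian cells, so that more hepcidin means less iron entering the blood. Its gene is switched on by bone morphogenetic proteins such as BMP6, made by liver endothelial cells, through receptors, the co-receptor hemojuvelin (Hjv) and SMAD proteins, with transferrin receptor 2 (Tfr2) and Hfe as sensors of iron-loaded transferrin; interleukin-6 acts beside them through STAT3. Mice have a pair of neighbouring hepcidin genes, of which Hamp encodes the iron hormone, and the peptide of Hamp2 is not known to lower blood iron.

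The promoters of the hepcidin genes are shown because both routes of control are known to act on Hamp there. Each run gives the 150 bases before the RefSeq start on the minus strand (build GRCm38.p6), for Hamp chr7:30944030-30944179 and for Hamp2 chr7:30924182-30924331. The first stretch in capitals is the core of the BMP response element known from hepcidin promoters (GGCGCC in Hamp), and the second is the STAT element TTCTTGGAA.
Hamp: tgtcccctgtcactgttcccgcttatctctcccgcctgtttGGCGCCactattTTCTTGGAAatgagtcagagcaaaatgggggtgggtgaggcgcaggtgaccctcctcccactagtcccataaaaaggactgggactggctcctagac
Hamp2: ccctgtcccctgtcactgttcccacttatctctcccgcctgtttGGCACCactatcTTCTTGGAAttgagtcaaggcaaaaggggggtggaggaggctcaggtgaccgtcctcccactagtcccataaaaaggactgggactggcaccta
In a global alignment 135 of 153 columns (88.2%) were identical and 6 were gaps. The STAT element stood in both, at -97 in Hamp and -94 in Hamp2 counted from the start. The BMP core began at -109 in Hamp, and at its aligned place in Hamp2, beginning at -106, the sequence was GGCACC, the substitution G4A counted from the core's 5′ end (Hamp's base first). Searched on both strands in 32851 RefSeq promoter windows (each 250 bases before to 50 after a start, so longer than the runs shown), GGCGCC occurred in 11.9% and TTCTTGGAA in 0.417%. RefSeq windows were found for 6 of the 10 genes, and besides Hamp only Tfrc held GGCGCC, at -89. The 2 motifs share no base in Hamp, and a match is only a match of letters.

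The hepcidin transcripts also differ at a match to the AU-rich 7-mer TATTTAT, which proteins of the Zfp36 family are known to bind. Below are the bases around it in the 3′ untranslated region of Hamp (GRCm38, chr7:30942408-30942436, minus strand) and the bases of Hamp2 aligned to them (chr7:30922435-30922463, minus strand), with the 7-mer in capitals.
Hamp: ctcaaccccatTATTTATtcctgccctcc
Hamp2: ctcaaccccagTATTCATtcctgccctct
Hamp held 1 match and Hamp2 none, with the substitution T5C counted from the 7-mer's first base. Among the other genes Tfrc held 2 matches, Smad6, Smad7 and Slc40a1 1 each, and Tfr2, Bmp6, Id1 and Trf none. Of 10516 genes passing the filter on low values that have an annotated 3′ untranslated region, 29.0% held at least 1.

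Hamp (ENSMUSG00000050440, protein-coding, chromosome 7, 30942368 to 30944032, minus strand, GRCm38) and Hamp2 (ENSMUSG00000056978, chromosome 7, 30922372 to 30924681, minus strand) are near copies. Their transcripts were identical in 88.8% of aligned columns, the longest shared stretch was 87 bases, and 16.6% of the 50-base stretches of Hamp occurred also in Hamp2, but 0% of its 100-base stretches. How reads matching both were counted is not given in the sources used here, so their split is uncertain. The annotation also places a non-coding gene, Gm44662, on the opposite strand over both, and whether counting used strand is not stated. Exons of Gm44662 overlap 0% of the exon bases of Hamp and 15.3% of those of Hamp2. It is not among the listed gene IDs.

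The libraries held 9890475 to 24768569 reads, worked out from the steps of the FPKM values. Library 2 of the WT ethanol group stood apart. It had the lowest total (the other 15 had at least 19069903), 22.5% of its reads from mitochondrial genes (3.64 to 6.97% in the others), a median Spearman correlation across genes of 0.691 with the other libraries (at least 0.905 for the others) and summed erythroid marker genes at 2160 FPKM (100.3 to 286 in the others). It also held Y-linked transcripts at 2.55 FPKM in sum, against at most 0.058 in the others. Xist was present in all 16, at 6.62 FPKM in this library and 13.7 to 49.4 in the others. Zfp36l1 measured 0.572 to 1.76 FPKM in the LKO libraries and 9.30 to 25.5 in WT. All 6 hepatocyte markers (Alb, Ttr, Apoa1, Serpina1c, Cps1, Ass1) were at least 1 FPKM in every library, as were all 8 Kupffer cell markers, 6 of 8 endothelial, 4 of 6 stellate and 5 of 7 erythroid markers. If WT ethanol library 2 moved a printed ethanol difference of the 10 genes by over 1.5 times, or changed its call, both are given.

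Hamp fell on the ethanol diet in the knockout livers. In FPKM, the LKO control libraries measured 4389, 966, 2380 and 2202 and the LKO ethanol libraries 139.7, 147.7, 246 and 40.7. Every ethanol library lay below every control library. The means were 2484 ± 1417 and 143.5 ± 83.9 (SD, n = 4 each), from 9105 to 39150 and 395 to 2165 reads. On the log2(FPKM + 1) scale on which all tests were made, the difference was -4.16 (standard error, SE, 0.605; 95% interval -5.44 to -2.89), which is 0.0558 of the control level, and limma gave an adjusted p = 0.00563 over all 11298 genes tested. Unless another fit is named, calls are those of limma on all 16 libraries with equal weights. Hamp was the 1 of the 10 genes called in this comparison, where 0.425% of all genes were called in either direction and 0.257% as lower, and 4.14% had all ethanol libraries below all control libraries. In bulk RNA, fewer cells of a type and less RNA per cell cannot be told apart. The summed hepatocyte markers measured 56105 to 71389 FPKM in the LKO control group and 56054 to 70160 in the LKO ethanol group. Within groups, the first component of variation over the 15 libraries other than WT ethanol library 2, which was given no side, put libraries 1 and 2 on 1 side and 3 and 4 on the other; the labels name no cause of it, and the LKO difference was -3.83 and -4.50 within the sides.

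In WT livers the Hamp difference was smaller and was not called. The WT control libraries measured 873, 1975, 1359 and 1034 FPKM and the WT ethanol libraries 794, 218, 710 and 1672, the 218 being library 2. The groups overlapped. Their means were 1310 ± 487 and 848 ± 605 (SD, n = 4 each), or 1059 ± 533 on ethanol for the 3 libraries other than library 2. The log2 difference was -0.89 (SE 0.605, 95% interval -2.16 to 0.39, limma adjusted p = 0.442), and -0.35 without library 2 (limma adjusted p = 0.738). None of the 10 genes was called for ethanol in WT by limma, where 4.18% of all genes were. Of the 10, Tfr2 and Id1 (2 genes) had an unadjusted limma p under 0.05, as did 19.7% of all genes. Limma-voom on the recovered reads called 0 of the 10 under both of its scalings, in fits that called 3.01% and 5.49% of all genes. Averaged over the genotypes, Hamp was lower on ethanol by 2.53 on the log2 scale (log2 difference -2.53, SE 0.428, limma adjusted p = 0.00198), where 7.78% of all genes were called and 3.19% as lower.

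**Figure D1:**
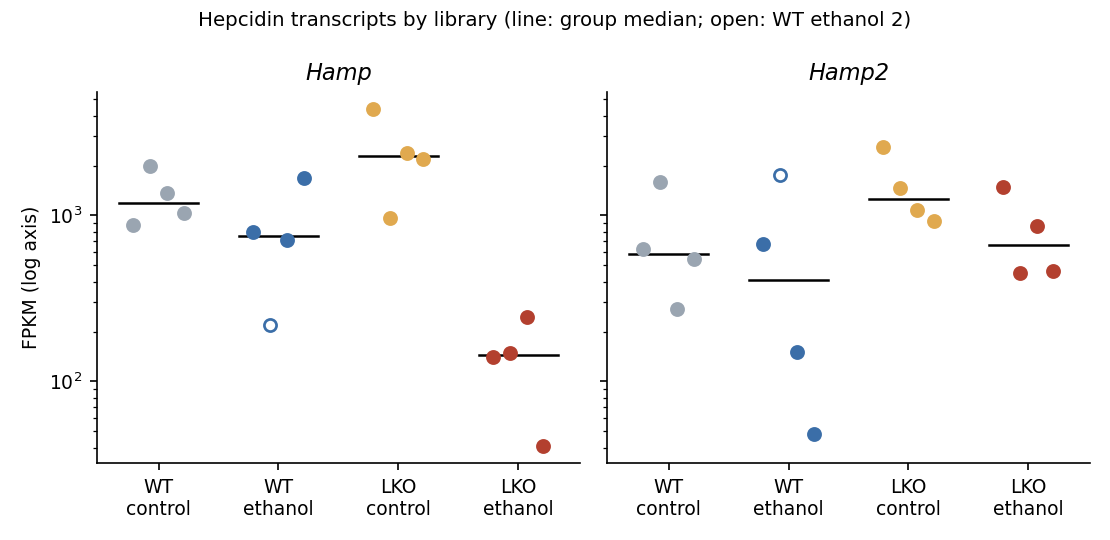
FPKM of Hamp (left) and Hamp2 (right) on a shared log axis, 1 point per library in each genotype and diet group, lines at group medians, the open point being WT ethanol library 2. The 4 LKO ethanol points of Hamp, 40.7 to 246 FPKM, lie below every other Hamp point except that of the open symbol, while for Hamp2 the groups overlap.

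The test of whether the genotypes differ in their ethanol response did not pass for Hamp. The interaction (the ethanol difference in LKO minus that in WT) was -3.28 on the log2 scale (SE 0.855, 95% interval -5.08 to -1.47, limma unadjusted p = 0.00134, adjusted p = 0.927). By limma it was called for none of the 10 genes and for 0 genes (0%) in the table. Hamp alone among the 10 had an unadjusted limma p under 0.05, as did 3.2% of all genes. Voom called 0 of the 10 under both scalings, in fits that called 0% of all genes. With library weights estimated by limma the Hamp interaction was -3.33 with an adjusted p of 0.0241, in a fit that called 4.48% of all genes, while it stayed uncalled in the 7 other alternatives and in all 16 fits that left out 1 library.

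Between genotypes on the same diet, Hamp was not called with all 16 libraries and equal weights. Among control-diet libraries it was 0.80 higher in LKO on the log2 scale (SE 0.605, limma adjusted p = 0.9997), where 0.00885% of all genes were called; it was 0.46 without LKO control library 1 and 1.19 without LKO control library 2. Among ethanol-fed libraries the difference was -2.48 (SE 0.605, limma adjusted p = 0.160), where 0.0797% of all genes were called; without WT ethanol library 2 it was -3.02 and passed (limma adjusted p = 0.0357), every LKO library then lying below every WT library. In that fit 0.221% of all genes were called, and 5.89% had all LKO libraries below all WT libraries. Averaged over the diets the difference was -0.84 (SE 0.428, limma adjusted p = 0.514), where 0.142% of all genes were called. The order of the Hamp means was thus LKO control, WT control, WT ethanol, LKO ethanol, in which no neighbours differed by the test with all 16 libraries and equal weights. No gene of the 10 was called between genotypes by limma in any of these 3 comparisons. In the same order 0, 1 and 0 of them had an unadjusted limma p under 0.05, the 1 being Hamp on ethanol. Of all genes, 3.45%, 11.9% and 10.4% did. Voom called none of the 10 under either scaling, in fits that called 0.00885% and 0.0443% of all genes on the control and ethanol diets under both, and 0.0885% and 0.159% averaged over diets.

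Hamp2 varied widely within groups and no comparison called it with all 16 libraries and equal weights. The WT control libraries measured 628, 1599, 272 and 545 FPKM, the WT ethanol libraries 672, 1744, 149.6 and 48.2, the LKO control libraries 2580, 1456, 1075 and 929, and the LKO ethanol libraries 1481, 449, 865 and 464. All 4 groups overlapped, and WT ethanol library 2, the lowest of its group for Hamp, was the highest for Hamp2. The ethanol difference was -1.03 in WT and -0.95 in LKO on the log2 scale (SE 0.831 each, limma adjusted p = 0.526 and 0.870), and -0.99 averaged over genotypes (SE 0.587, 95% interval -2.23 to 0.25, adjusted p = 0.363). The difference of LKO from WT was 1.16 for control-fed and 1.24 for ethanol-fed libraries (SE 0.831 each, limma adjusted p = 0.9997 and 0.581); the control-fed value was 0.77 without WT control library 3 and 1.62 without WT control library 2. Other single libraries moved these values: the WT ethanol difference was -1.87 without WT ethanol library 2 and -0.15 without WT ethanol library 4, and the averaged one -1.41 and -0.55 without the same libraries. LKO minus WT among ethanol-fed libraries was 2.07 without library 2 and 0.36 without library 4, all of these uncalled by limma. The 95% interval of the LKO ethanol difference of Hamp2 was -2.71 to 0.80.

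In the LKO ethanol livers Hamp2 exceeded Hamp. There the ratio of their FPKM was 10.6, 3.04, 3.52 and 11.4, against 0.588, 1.51, 0.452 and 0.422 in LKO on the control diet. The WT control libraries gave 0.720, 0.809, 0.200 and 0.527, and the WT ethanol libraries 0.847, 8.004, 0.211 and 0.0288, the 8.004 being library 2. All 4 LKO ethanol libraries held more Hamp2 than Hamp, as did 2 of the 12 others. The log2 ratio was 3.21 higher on ethanol than on the control diet in LKO (two-sided exact permutation p = 0.0286, the smallest that 4 against 4 libraries can give; Benjamini-Hochberg adjusted over 4 such tests, 0.114). It was 3.71 higher in LKO than in WT on ethanol (exact permutation p = 0.0857, adjusted 0.171), and 5.09 without WT ethanol library 2 (exact permutation p = 0.0571, the smallest that 4 against 3 libraries can give, adjusted 0.114), a design that cannot pass 0.05. None passed after adjustment. Each of these is the Hamp2 difference minus the Hamp difference on the log2(FPKM + 1) scale, so they are no separate observation.

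**Figure D2:**
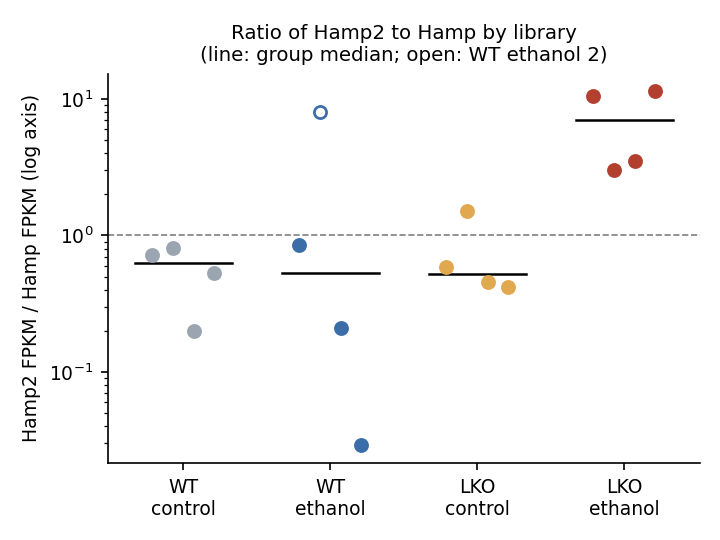
Ratio of Hamp2 to Hamp FPKM in each library on a log axis, by genotype and diet, with group medians as lines, equality dashed and WT ethanol library 2 as the open point. The 4 LKO ethanol libraries lie at 3.04 to 11.4, and of the other 12 only the open point, at 8.004, lies in that range.

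None of the 8 regulators was called in any of the 7 comparisons by limma on all 16 libraries with equal weights. Across them the ethanol difference averaged over genotypes ran from -0.66 (Tfr2) to 0.79 (Id1) on the log2 scale, with a smallest limma adjusted p of 0.0673. For this difference 2 of the 8 had an unadjusted limma p under 0.05, as did 21.6% of all genes. Over the 10 genes the median of this difference was -0.15 and 4 were above 0, against a median of 0.02 over all genes tested; without WT ethanol library 2 these were 0.05, 5 and 0.11. The smallest adjusted p among the 8 was 0.514 between genotypes on any diet and 0.927 for the interaction.

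Tfr2, the transferrin receptor of hepatocytes that signals iron supply to hepcidin, was lower on ethanol in both genotypes without passing the threshold. The WT control libraries measured 134.1, 113.7, 171.6 and 182.7 FPKM, and the WT ethanol libraries 88.6, 48.8, 126.8 and 107.6. In LKO the control libraries measured 117.0, 148.3, 173.4 and 161.0, and those on ethanol 87.3, 81.3, 100.1 and 135.2. In each genotype the highest ethanol libraries overlapped the lowest control libraries. The log2 difference was -0.75 in WT, -0.58 in LKO (SE 0.302 each) and -0.66 averaged over both (SE 0.214, 95% interval -1.11 to -0.21, limma adjusted p = 0.0673). Without WT ethanol library 2 the WT difference was -0.47, and the averaged difference was -0.52 and passed (limma adjusted p = 0.0262), in a fit that called 20.5% of all genes, and it also passed without WT ethanol library 3 (-0.75, adjusted p = 0.0438), in a fit that called 7.57%. On the recovered reads voom gave -0.70 with an adjusted p of 0.0124 under trimmed-mean scaling and -0.68 with 0.0715 under scaling to library totals, so the call depends on the scaling (11.7% of all genes were called under the first). Within the sides, without WT ethanol library 2, it was -0.56 and -0.56. A fit with a term for the sides and without that library called Tfr2 in WT (-0.54, limma adjusted p = 0.0152), in LKO (-0.58, adjusted p = 0.0124) and averaged (-0.56, adjusted p = 0.000710), and called 19.7%, 10.7% and 32.6% of all genes there. The sides were drawn from these same expression values, so p-values of fits with this term can be too small. With library weights the averaged difference was -0.36 and passed (adjusted p = 0.0456), where 36.7% of all genes did.

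Bmp6, the ligand that raises hepcidin when liver iron is high, was near the filter. It measured 0.976 to 2.12 FPKM in WT control, 0 to 2.07 in WT ethanol, 0.884 to 2.16 in LKO control and 0.658 to 2.64 in LKO ethanol libraries, and only 12 of the 16 reached 1 FPKM. The 0 was WT ethanol library 2; elsewhere Bmp6 rested on 34 to 134 reads. Its averaged ethanol difference was -0.21 (SE 0.223, limma adjusted p = 0.650), and -0.04 without library 2. Oit3, an endothelial marker, was also at 0 in that library, in which summed endothelial markers were 16.4 FPKM (43.4 to 140.0 in the others).

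Id1, a transcriptional regulator and an early target of BMP signalling, was higher on ethanol without passing the threshold. The WT control libraries measured 6.06, 5.67, 12.5 and 3.52 FPKM, and the WT ethanol libraries 19.7, 7.67, 12.03 and 19.3. In LKO the control libraries measured 8.18, 5.45, 5.14 and 3.10, and those on ethanol 6.08, 17.7, 7.64 and 5.15. Both pairs of groups overlapped, and in LKO a single library, at 17.7, stood above the rest. The log2 difference was 1.01 in WT, 0.56 in LKO (SE 0.401 each) and 0.79 averaged (SE 0.283, 95% interval 0.19 to 1.38, limma adjusted p = 0.102). Without WT ethanol library 2 the averaged difference was 0.91 and passed (limma adjusted p = 0.0262), in the fit that called 20.5% of all genes. Without LKO ethanol library 2, the one at 17.7, the averaged difference was 0.61 (adjusted p = 0.217) and the LKO difference 0.22. With the side term Id1 was called in WT (1.33, limma adjusted p = 0.0269) and averaged (0.94, adjusted p = 0.0132), and so it was with library weights (0.99, adjusted p = 0.0123, where 38.4% of all genes were called, and 0.64, adjusted p = 0.0248).

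Smad6 and Smad7, the inhibitory SMADs that BMP signalling induces and that dampen it, were low and uncalled with equal weights. Smad6 measured 1.91 to 3.25 FPKM in WT control, 0.749 to 5.17 in WT ethanol, 1.53 to 2.81 in LKO control and 2.20 to 3.91 in LKO ethanol libraries. Smad7 measured 2.64 to 4.49, 1.61 to 5.46, 1.91 to 3.53 and 1.89 to 3.38 in the same order. The averaged ethanol difference was 0.19 for Smad6 (SE 0.226, limma adjusted p = 0.698) and -0.12 for Smad7 (SE 0.186, limma adjusted p = 0.765). For both genes the lowest WT ethanol value was that of library 2, without which the averaged differences were 0.38 and -0.02. Without WT ethanol library 4 they were 0.07 and -0.24. With library weights Smad6 was called for ethanol averaged over genotypes (0.50, limma adjusted p = 0.00409) and in WT (0.65, adjusted p = 0.00540).

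Slc40a1, the ferroportin transcript, was not called on either diet or in either genotype. Its group means were 42.6 ± 5.25, 42.2 ± 24.7, 39.0 ± 11.8 and 42.2 ± 21.1 FPKM (SD, n = 4 each) in WT control, WT ethanol, LKO control and LKO ethanol. The LKO ethanol libraries spread from 20.4 to 67.7, and WT ethanol library 2 measured 6.43 against 45.2 to 61.5 in the other 3 of its group. The averaged ethanol difference was -0.18 (SE 0.384, 95% interval -0.99 to 0.63, limma adjusted p = 0.848), and 0.18 without that library (adjusted p = 0.627). Hepcidin is known to act on ferroportin as a protein, which RNA does not show.

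Tfrc, the transferrin receptor through which most cells take up iron, was led by 1 library. It measured 3.26 to 8.41 FPKM in WT control, 5.33 to 9.71 in WT ethanol and 4.71 to 6.06 in LKO control libraries, and 5.15, 8.91, 8.03 and 20.7 in LKO ethanol libraries. The library at 20.7 was the one lowest for Hamp, at 40.7. The ethanol difference was 0.75 in LKO (SE 0.333, limma adjusted p = 0.4996) and 0.46 averaged (SE 0.235, adjusted p = 0.280), and without that library 0.39 and 0.28.

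Trf, transferrin, the iron carrier of plasma, measured 10.99 to 24.97 FPKM in WT control, 11.1 to 20.2 in LKO control and 12.4 to 23.7 in LKO ethanol libraries. In the WT ethanol group it measured 16.9, 11.9 and 26.6, and 151.7 in library 2. Its averaged ethanol difference was 0.50 (SE 0.391, limma adjusted p = 0.508), and 0.12 without library 2. In GENCODE M21, 63.5% of the exon bases of Trf are shared with Gm20425 on the same strand, which was listed at 0 in all 16 libraries. How reads in shared exons were counted is not stated, so the level of Trf is uncertain, and its low place among liver transcripts cannot be read as low expression.

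**Figure D3:**
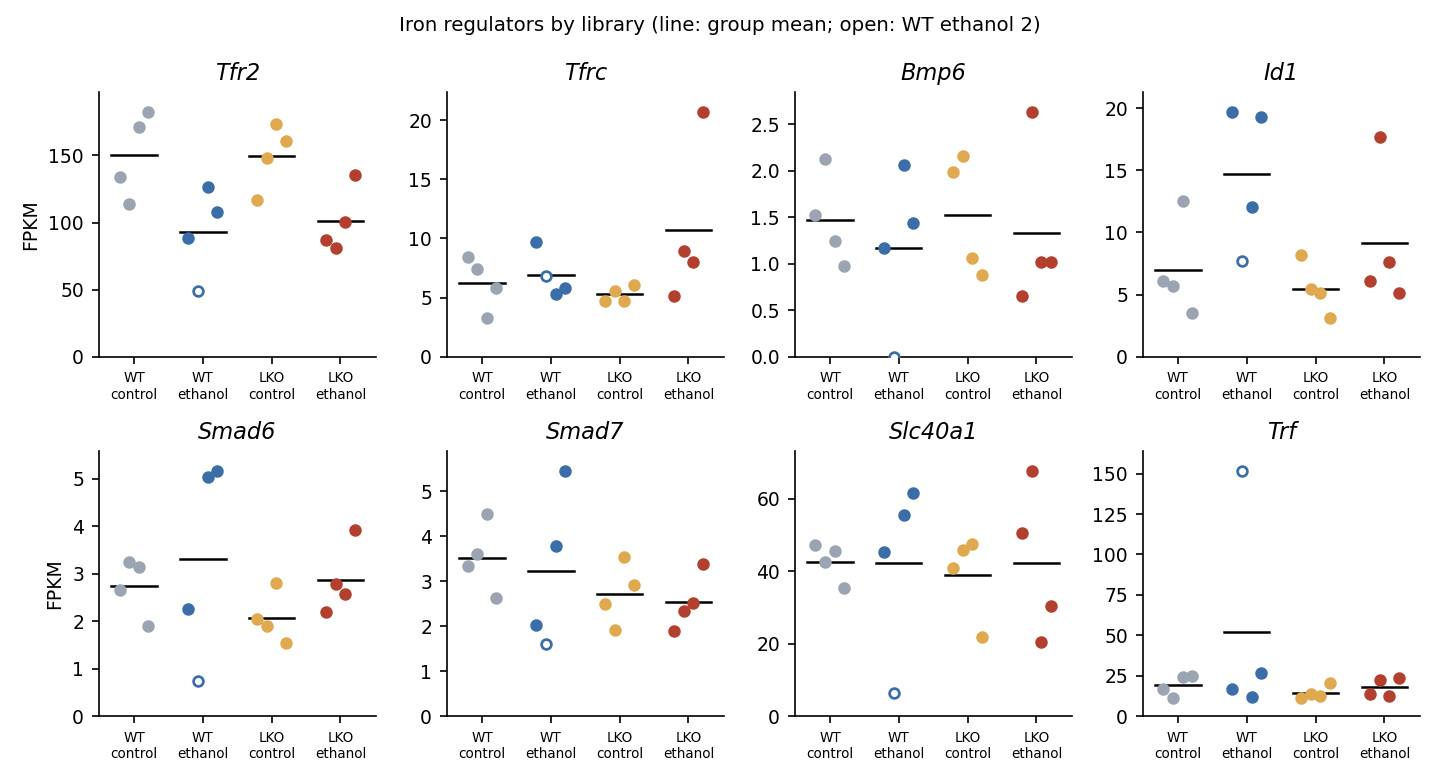
FPKM of the 8 regulators on linear axes from 0, 1 point per library, by genotype and diet, lines at group means and WT ethanol library 2 as the open point. Tfr2 lies lower and Id1 higher on ethanol with overlapping groups, and the open point is the lowest of its group for Tfr2, Bmp6, Id1, Smad6, Smad7 and Slc40a1 and far the highest for Trf, at 151.7.

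**Figure D4:**
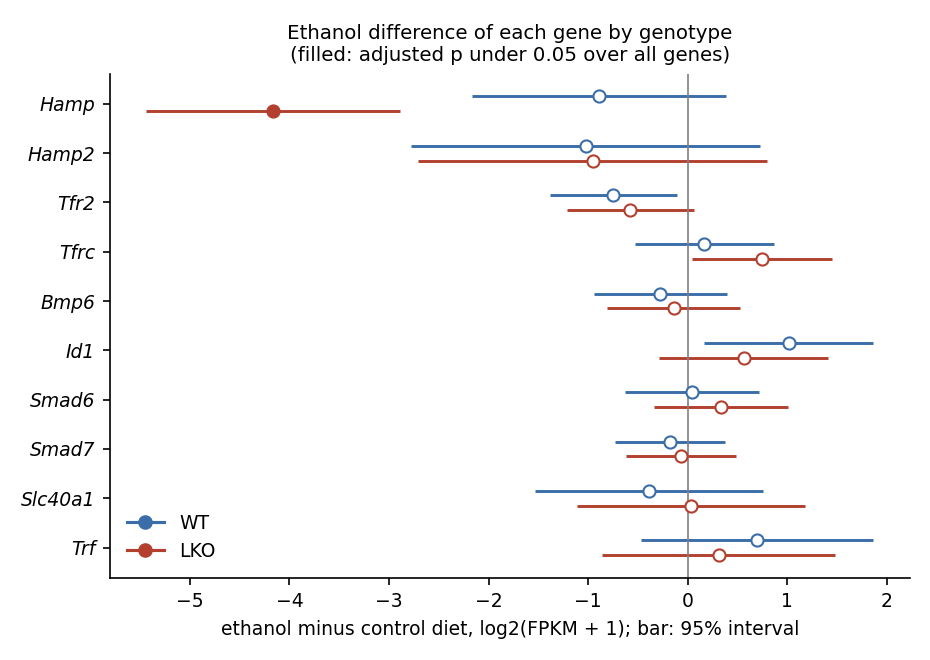
Ethanol minus control diet on the log2(FPKM + 1) scale for each of the 10 genes, in WT (upper bar) and LKO (lower bar), with 95% intervals of the limma fit, filled where the adjusted p over all genes is under 0.05. Only Hamp in LKO, at -4.16, is filled. Without WT ethanol library 2 the WT difference changed sign for Bmp6 (0.06), Smad7 (0.02), Slc40a1 (0.33) and Trf (-0.06), and was 0.42 for Smad6.

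The genes around hepcidin were taken from lists by role. Of all genes tested, 4.59% rose and 3.19% fell on ethanol averaged over genotypes, 2.58% rose in WT and 0.168% in LKO. Of the BMP ligands, receptors and co-receptors 14 of 15 passed the filter, and averaged over genotypes 2 rose on ethanol and 0 fell (median log2 difference 0.06, or 0.20 without WT ethanol library 2). These were Gdf2, which encodes the ligand BMP9 (0.93, SE 0.204, limma adjusted p = 0.0102), and the co-receptor Hjv (0.68, SE 0.203, limma adjusted p = 0.0498). Hjv was still called in only 5 of the 16 fits that left out 1 library and 4 of the 8 other alternatives, with 0.207 as the highest adjusted p, and Gdf2 in all 24. Hfe, which acts with Tfr2, gave -0.15 and Tmprss6, the protease that cleaves hemojuvelin, -0.19 (SE 0.385 and 0.149, limma adjusted p = 0.877 and 0.524). Of SMADs and other BMP targets, 8 of 9 passed the filter and 0 were called in any comparison by limma. The smallest averaged adjusted p was that of Smad9 (-0.61, SE 0.243, limma adjusted p = 0.139). Without WT ethanol library 2, Id2, a relative of Id1, passed for the averaged ethanol difference (0.69, limma adjusted p = 0.0349).

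Of the antagonists of BMP signalling or of hepcidin, 4 of 7 passed the filter, and averaged over genotypes 2 rose and 0 fell. Fst, follistatin, which binds activins and some BMPs, rose on ethanol by 2.27 in WT (SE 0.585, limma adjusted p = 0.0379) and 2.09 averaged (SE 0.414, limma adjusted p = 0.00509); in LKO it differed by 1.90 (adjusted p = 0.209). The averaged call held in all 24 alternatives, and the WT call in 5 of the 16 fits that left out 1 library and 5 of the 8 others. Fkbp1a, which holds the BMP type I receptor silent, rose by 0.72 averaged (SE 0.209, limma adjusted p = 0.0446), and stayed called in 3 of the 16 fits that left out 1 library and 6 of the 8 others (highest adjusted p 0.179). Erfe, the erythroid hormone that lowers hepcidin, was at most 0.503 FPKM and was listed at 0 in 7 libraries.

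Of the inflammatory and hepatocyte activators of hepcidin, 11 of 12 passed the filter, and 1 rose on ethanol averaged over genotypes (median -0.29, or -0.0036 without WT ethanol library 2). This was Creb3l3, a hepatocyte transcription factor known to activate hepcidin in stress (0.56, SE 0.154, limma adjusted p = 0.0330), every ethanol library lying above every control library in both genotypes together, as for 1.19% of all genes; it stayed called in 6 of the 16 fits that left out 1 library and 7 of the 8 others (highest adjusted p 0.170). Stat3 gave -0.29 and Socs3, its feedback inhibitor, -0.05 (SE 0.335 and 0.355, limma adjusted p = 0.686 and 0.962). Of 8 acute phase genes under STAT3, all passed the filter and 1, Lcn2, which encodes an iron-scavenging protein, rose: by 4.22 in WT (SE 0.692, limma adjusted p = 0.00478) and 3.29 averaged (SE 0.489, limma adjusted p = 0.000844), with 2.37 in LKO (adjusted p = 0.176). The median of these 8 was -0.20.

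Of the genes for iron uptake, storage and export, 23 of 24 passed the filter, and on ethanol averaged over genotypes 4 rose and 0 fell, with a median of -0.09 (0.21 without WT ethanol library 2). Hmox1, which releases iron from heme, rose by 1.76 in WT, 2.15 in LKO and 1.95 averaged (SE 0.399, 0.399 and 0.282; limma adjusted p = 0.0213, 0.0283 and 0.000725), with no overlap between diets in WT (5.62% of all genes were likewise higher), in LKO (8.15%) or over both (1.19%). Both ferritin subunits rose when averaged over genotypes, Fth1 by 0.67 (SE 0.182, limma adjusted p = 0.0327) and Ftl1 by 0.65 (SE 0.175, limma adjusted p = 0.0320). The heme transporter gene Slc48a1 rose by 0.87 (SE 0.240, limma adjusted p = 0.0341). The averaged Hmox1 call held in all 16 fits that left out 1 library, its WT call in 12 and its LKO call in 9, and the averaged call of Fth1 in 7, Ftl1 in 8 and Slc48a1 in 5. Of the 8 other alternatives, 5 called Fth1, 4 Ftl1 and 6 Slc48a1 (highest adjusted p 0.0868, 0.173 and 0.115), 8 called the averaged Hmox1, 6 its WT and 7 its LKO difference. Steap2, an iron reductase gene, was lower in LKO by 0.74 averaged over diets (log2 difference -0.74, SE 0.141, limma adjusted p = 0.0486), a call held in 3 of those 16 fits and 5 of the 8 others (highest adjusted p 0.157), where 0.0443% of all genes were called as lower. Ferritin has many processed copies in the genome, so reads of Fth1 and Ftl1 may be split.

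**Figure D5:**
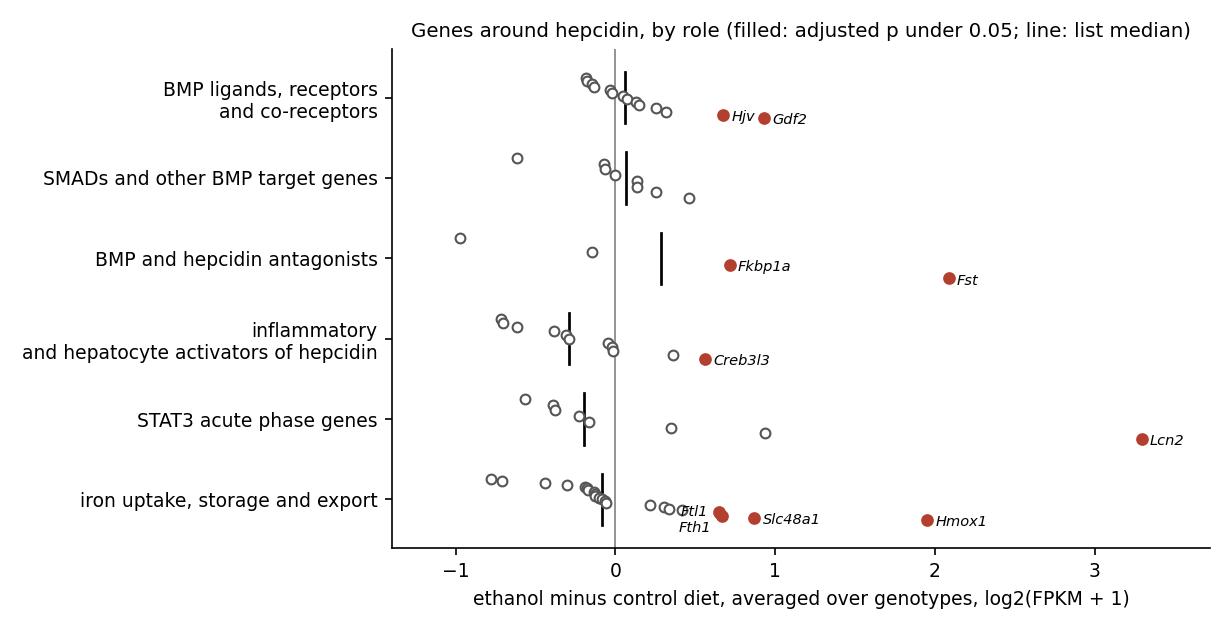
Ethanol minus control diet averaged over genotypes, log2(FPKM + 1), for every tested gene of 6 lists, 1 point per gene, list medians as vertical lines, filled and named where the limma adjusted p is under 0.05. All 10 filled points lie above 0, from 0.56 (Creb3l3) to 3.29 (Lcn2), while the list medians, with all 16 libraries, lie between -0.29 and 0.28.

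Markers of other liver cells were set beside these values. In the averaged ethanol comparison 1 of 8 endothelial markers rose, Lyve1 (1.75, SE 0.435, limma adjusted p = 0.0208), while 3 of the 8 were above 0 and their median was -0.26 (-0.52 in WT). Without WT ethanol library 2 the medians were -0.0073 and 0.0045, with 4 of the 8 above 0. In the same comparison 1 of 6 stellate markers rose, Des (0.57, limma adjusted p = 0.0379). In WT, 1 of 8 Kupffer markers, Marco (1.71, limma adjusted p = 0.0379), and Des (0.93, limma adjusted p = 0.0296) rose, and none of the hepatocyte or erythroid markers was called. With 1 library left out, the averaged call of Lyve1 held in 15 of 16 fits and that of Des in 4, and the WT calls of Marco and Des in 7 and 11. Of the 8 other alternatives, 7 called Lyve1, 3 the averaged and 3 the WT difference of Des, and 4 Marco. In LKO no marker was called on ethanol. There 1 of 8 Kupffer markers lay above 0, with a median log2 difference of -0.56, against 4 of 8 and 0.08 in WT, and for the interaction 0 of 8 lay above 0, with a median of -0.83 (0.09 over all genes). Without WT ethanol library 2 the WT count was 7 of 8 with a median of 0.39, and the interaction median -1.08. Summed Kupffer markers in LKO ran from 130.4 to 451 FPKM on the control diet and 86.7 to 480 on ethanol, and summed endothelial markers from 43.4 to 140.0 and 52.2 to 125.5. Their part in the Hamp difference was not tested.

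Genes that varied most like Hamp were ranked by Pearson r of log2(FPKM + 1) over the 16 libraries among 10466 named genes. The highest were Cir1 (0.77), Abtb1 (0.76), C9, a complement protein of hepatocytes (0.76), Lpcat3, a phospholipid enzyme (0.75), and Ighm, the heavy chain of IgM (0.74). The lowest were Trmt61a (-0.75), the glutathione transferase gene Gstt3 (-0.72), Rasl10b (-0.72), the phosphate transporter gene Slc34a2 (-0.72) and the organic cation transporter gene Slc22a3 (-0.70). These points share the diet groups: after subtraction of group means the r with Hamp was 0.66 for Cir1, 0.53 for Lpcat3, 0.29 for Ighm, 0.22 for C9 and -0.28 for Abtb1, and without WT ethanol library 2 it was 0.43, 0.15, -0.10, -0.36 and 0.05. Without that library the 5 highest r over the 15 others were those of Abtb1 (0.83), Cir1 (0.81), Atg14 (0.80), Haus7 (0.79) and Sytl1 (0.78), of which the last 3 had ranked 55, 87 and 1410 with all 16, so the ranking rests partly on it. Hamp2 ranked near the middle (r 0.03). Among the 8 regulators Tfr2 was highest (0.46) and Tfrc lowest (-0.66). After subtraction of group means Tfr2 gave 0.097 (-0.51 without WT ethanol library 2), Tfrc -0.44 (-0.53) and Id1, then the highest, 0.52 (0.38). Slc34a2 measured 0.050 to 0.374 FPKM in LKO control and 5.37 to 55.6 in LKO ethanol libraries, and rose there by 3.70 on the log2 scale (limma adjusted p = 0.00505).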

How the data were processed

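Liver RNA-seq of 16 libraries was used, grouped by the treatment labels. The authors deposited 1 table of FPKM values for 35275 Ensembl gene IDs. Per the submitters' processing notes, fastp, STAR 2.6.1, HTSeq, DESeq2 and build mm10 were used; their parameters are not given in the sources used here. Symbols and positions came from GENCODE M21 (GRCm38, the same build), which named 34490 IDs, and promoter sequences from RefSeq (GRCm38.p6). Reads were recovered from the steps of the deposited FPKM values for all 24377 genes above 0.

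Genes at 1 FPKM or more in at least 4 libraries (11298, all 10 genes described among them) were tested as log2(FPKM + 1), a scale that understates changes of low genes. A group-means model was fitted with limma 3.58.1 (R 4.3.3, eBayes with trend) for 7 two-sided contrasts, with Benjamini-Hochberg adjustment over all genes kept; genes were called at an adjusted p under 0.05. The design had foreseen a count test only for a table of counts. The procedure was tested on simulated data.

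The 10 genes and the other lists were chosen with earlier results of these data known. Named are the 10 genes; from each other list the genes called in any contrast, at most 4 by smallest adjusted p, or else the one with the smallest; Hjv, Hfe, Tmprss6, Erfe, Fth1, Ftl1, Stat3 and Socs3 always; and the 5 genes most and the 5 least like Hamp. Alternatives were quantile normalization, equal sums, a pseudocount of 0.1, no filter, array weights, a term for the side of the within-group component (without WT ethanol library 2), limma-voom on the recovered reads, scaled to library totals or by a trimmed mean of M values (both chosen after seeing the data), and leaving out each library. The sides were taken from the within-group variation of these same values, so p-values of every fit with the side term can be too small. Id2, Atg14, Haus7 and Sytl1 were named after their values were seen.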

Additional observations from a re-analysis of the deposited data

Results flagged for a closer look

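Trf in WT ethanol library 2, at 151.7 FPKM, was the only one of 40 gene and group values checked whose distance to the nearest of its group passed the limit for 4 samples: the gap was 0.895 of the group's range. Chance alone marks about 1 group in 20 with this rule. The other 3 WT ethanol libraries lay at 11.9 to 26.6 FPKM, and the same library held Apoa1 at 34502 FPKM (4587 to 10826 in the other 15) and Cps1 at 36.5 (339 to 1188).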

How the results depend on the processing

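The fall of Hamp on ethanol was called in every one of the 8 alternatives and 16 fits without 1 library, in LKO at -4.55 (without LKO control library 2) to -3.65 (without LKO ethanol library 4) and averaged over genotypes at -2.74 to -2.25. Counts of called genes are to be read against the share of all genes called. Of the 10 genes, the number called for ethanol in WT was 0, 3 with array weights (38.4% of all genes), 2 with the side term (19.7%) and 0 in all fits without 1 library (1.29 to 9.48%); in LKO it was 1, 2 with the side term (10.7%) and 1 in all fits without 1 library (0.0531 to 3.62%). Averaged over genotypes it was 1, 5 with array weights (36.7%), 4 with the side term (32.6%), 2 with voom under trimmed-mean scaling (Tfr2 beside Hamp) but 1 under total scaling, and 1 to 3 without 1 library (4.59 to 20.5% of all genes; 3 without WT ethanol library 2, 2 without its library 3). For LKO against WT on ethanol it was 0, 3 with array weights (30.7%), 1 with the side term (1.58%) and 0 to 1 without 1 library (0.00885 to 3.43%; 1 without WT ethanol library 2); averaged over diets 0, 4 with array weights (34.1%) and 1 with the side term (11.1%); and for the interaction 0, with 1 by array weights (4.48%). In the WT ethanol group the array weights were 4.998 for library 3, 0.278 for library 1 and 0.0418 for library 2, so that 1 library stood for most of that group. Under them Hamp2 passed for ethanol in WT (-2.34, adjusted p = 0.00222) and averaged over genotypes (-1.66, adjusted p = 0.00301), for LKO against WT on ethanol (2.52, adjusted p = 0.00594) and averaged over diets (1.84, adjusted p = 0.00407). Hamp passed for LKO against WT on ethanol (-2.77, adjusted p = 0.00388; -3.03 and 0.0296 with the side term) and averaged over diets (-1.11, adjusted p = 0.0352). Also for LKO against WT, Smad6 passed on ethanol (-0.62, adjusted p = 0.0202) and averaged over diets (-0.47, adjusted p = 0.0100) and Smad7 averaged over diets (-0.44, adjusted p = 0.0167). With the side term Hamp2 passed for ethanol averaged over genotypes (-1.30, adjusted p = 0.0210) and for LKO against WT averaged over diets (1.51, adjusted p = 0.0319).

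Among uncalled values the direction changed for the Hamp2 interaction (0.07), which was -0.29 with voom under trimmed-mean scaling and -0.80 to 0.91 without 1 library (-0.38, -0.27, -0.80, -0.05, -0.12, -0.27 and -0.01 where it was below 0); for the averaged ethanol difference of Smad7 with array weights (0.10); and for that of Slc40a1 with array weights (0.061), with the side term (0.22) and without 1 library (-0.33 to 0.18, the 0.18 without WT ethanol library 2). Over all 70 pairs of gene and comparison, the sign changed in 61 of the results without 1 library and 53 of the others; each was uncalled in the reported fit, and 1 was called after the change, Smad6 for LKO against WT on ethanol (0.001 with equal weights, the -0.62 above with array weights). The cause was not tested. Leaving out WT ethanol library 2 shifted the median of all genes by 0.19 for ethanol in WT and by -0.20 for LKO against WT on ethanol, and array weights by 0.25 and -0.29. No paired analysis was made. No number in the library titles is shared between groups, and some run consecutively across the diets of a genotype. No label says that such neighbours are pairs, so whether libraries were matched is unknown. Bmp6 rested on 34 to 134 reads in the libraries where it was above 0.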
